A study of Mus musculus with 6 samples.

Results

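The T cell receptor alpha locus genes are the variable (V), joining (J) and constant (C) genes from which the alpha chain of the alpha-beta T cell receptor is built. They were taken by symbol, as every gene whose name starts with Trav or Traj followed by a number, together with Trac. This gave 191 of the 55394 genes of the files: 130 V segments, of which 20 are annotated as pseudogenes, 60 J segments, of which 9 are pseudogenes, and Trac. In GENCODE M21, the annotation of the mouse genome build GRCm38, all of them lie on the plus strand of chromosome 14, chr14:52427928-54224206, with the V segments first, the J segments next and Trac last. The symbol of 189 is the same in that annotation, and Trav7d-6 and Trav13-5 carry another symbol there.

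Each SMART-seq library was made from 1000 lung ILC2s (group 2 innate lymphoid cells) of C57BL/6 neonates. In the Abx group (3 libraries) the dams drank ampicillin, metronidazole, neomycin and vancomycin from gestation day 10 to 14, and in the Con group (3 libraries) they did not. The sort kept CD45+ CD90.2+ CD25+ cells and removed cells that stained for a lineage cocktail including CD3e, CD4, CD5, CD8a and TCR-β. The age of the pups in these libraries and the number of pups behind each are not given in the sources used here, so the p-values below measure the spread between libraries only. Libraries are given in the order Con 1, 2 and 3, then Abx 1, 2 and 3. Levels are FPKM, fragments scaled by exon length and by mapped reads, as deposited, and the number of reads is unknown.

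A working alpha chain is made when one V segment is joined to one J segment by the RAG recombinase, and the joined exon is spliced to the exons of Trac. ILC2s belong to the lymphoid lineage but carry no T cell receptor on the surface, while T cells in the same lung carry one. Some T cells use a fixed pairing: invariant natural killer T cells join Trav11 or its copy Trav11d to Traj18, and mucosal-associated invariant T (MAIT) cells join Trav1 to Traj33. The mouse V cluster holds duplicated blocks, whose copies are marked d and n in the names.

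The segments on which the results below turn are printed first, 5′ to 3′, from the GENCODE M21 transcripts. For the V segments the last 90 bases are shown. Capitals mark bases that lie in no 50-base window shared with another V segment, and small letters mark bases that lie in at least 1 such window. Trav12-1 and Trav12-2 were the V segments with the highest mean over the libraries, and each of the other V segments shown was high in a single library.
Trav12-1: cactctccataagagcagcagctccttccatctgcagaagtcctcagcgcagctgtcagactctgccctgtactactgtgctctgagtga
Trav12-2: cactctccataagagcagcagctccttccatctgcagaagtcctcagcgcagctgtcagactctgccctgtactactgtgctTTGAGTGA
Trav11d: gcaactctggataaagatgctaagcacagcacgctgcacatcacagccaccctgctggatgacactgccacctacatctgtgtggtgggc
Trav14n-2: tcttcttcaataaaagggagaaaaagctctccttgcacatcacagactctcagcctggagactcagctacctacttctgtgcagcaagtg
Trav16n: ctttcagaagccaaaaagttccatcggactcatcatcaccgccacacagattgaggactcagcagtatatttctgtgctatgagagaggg
Trav17: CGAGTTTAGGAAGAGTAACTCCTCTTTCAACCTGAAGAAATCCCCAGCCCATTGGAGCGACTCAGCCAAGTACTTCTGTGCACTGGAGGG

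The J segments that reached 1 FPKM in any library are shown whole, as is Traj33, the J segment of the MAIT chain. The 51 J segments that are not pseudogenes were aligned at their 3′ ends, and at 13 of the last 45 positions 1 base was found in at least 80% of them. Capitals mark where a segment carries that base. Traj18 and Traj26 carry it at all 13 positions, which is also the median of the 51 segments, Traj33 at 12 and Traj19 at 9.
Traj18: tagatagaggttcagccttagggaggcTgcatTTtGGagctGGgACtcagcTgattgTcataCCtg
Traj19: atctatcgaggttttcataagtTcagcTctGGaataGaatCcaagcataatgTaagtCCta
Traj26: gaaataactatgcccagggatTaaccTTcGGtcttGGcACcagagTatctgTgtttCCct
Traj33: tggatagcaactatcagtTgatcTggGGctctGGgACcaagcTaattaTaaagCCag

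In the genes tested, Abx1 stood apart from the other 5 libraries on the first principal component (30.8% of the variance) and Abx3 on the second (26.4%). Genes at 1 FPKM or more numbered 8574 to 9203 in Con and 7074 to 8193 in Abx, with the fewest in Abx1. All 14 ILC2 markers on the list were in the files, and 13 of them reached 1 FPKM in every library. Il1rl1, the IL-33 receptor, was the exception at 0.01 to 2.94 FPKM. Of the 13 tested, 7 had a positive and 6 a negative log2 fold change, with a median of 0.03, and none was called. Among them 3 lay wholly lower in Abx and 1, Ptprc, wholly higher, beside 8.73% and 8.49% of all genes tested. Ptprc averaged 21.5 ± 2.48 FPKM in Con and 37.7 ± 10.7 in Abx (SD, n = 3 each; limma adjusted p = 0.542). Icos, a costimulatory receptor, averaged 272.0 ± 27.3 FPKM in Con and 105.8 ± 20.5 in Abx (SD, n = 3 each; limma adjusted p = 0.0911). Areg, which encodes the growth factor amphiregulin, averaged 740.2 ± 72.0 FPKM in Con and 289.4 ± 98.6 in Abx (SD, n = 3 each; limma adjusted p = 0.0911). Their part in the V, J and Trac levels was not tested. Xist, the transcript of the inactive X chromosome, and the Y-linked gene Eif2s3y both separated the groups without overlap and in opposite directions, so the treatment and the sex of the pups cannot be told apart in any comparison below.

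V segments were detected more widely than J segments. Of the 130, 98 were above 0 in at least 1 library, 37 reached 1 FPKM in at least 1 library and 5 reached it in all 6 libraries. The number at 1 FPKM or more was 7, 11 and 9 in Con, against 28, 13 and 21 in Abx, or 9.0 ± 2.0 (SD, n = 3) in Con and 20.7 ± 7.51 (SD, n = 3) in Abx. Every Abx library had more than every Con library, and Abx2 lay close to Con2. Counted above 0 instead, the numbers were 40, 59 and 50 in Con and 79, 49 and 67 in Abx, and the groups overlapped. Of the 20 V pseudogenes, 18 were listed at 0 in all 6 libraries.

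The summed level of the V segments was 26.8, 57.1 and 50.5 FPKM in Con, against 230.2, 56.8 and 123.3 in Abx. Abx1 and Abx3 lay above all Con libraries, and Abx2 lay within the Con range. The mean of Abx was 3.05 times that of Con, and 2.01 times without Abx1. In these bulk libraries, fewer cells of a type and less RNA per cell cannot be told apart. The whole locus took 0.00856% to 0.0146% of the total FPKM in Con and 0.0148% to 0.0693% in Abx.

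**Figure D1:**
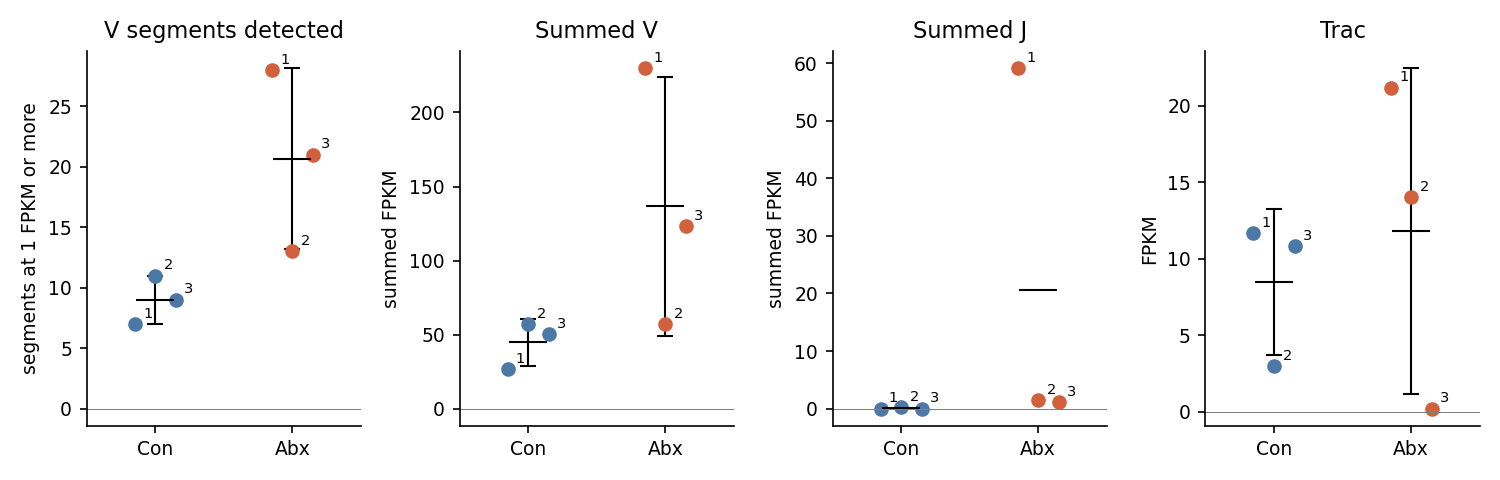
Number of V segments at 1 FPKM or more, summed FPKM of V segments, summed FPKM of J segments, and FPKM of Trac, for the Con (blue) and Abx (orange) libraries. Points are libraries with their replicate number, the horizontal dash is the group mean, and the bars are the SD (n = 3), which is left out for J segments. Abx1 is the highest library in each panel, and Trac is lowest in Abx3, at 0.22 FPKM.

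The V segments with the highest mean over the 6 libraries were Trav12-1 and Trav12-2, 2 members of one family whose last 90 bases are identical at 89 positions. Trav12-1 measured 5.25, 7.58 and 5.59 FPKM in Con, against 35.62, 4.34 and 13.25 in Abx. Trav12-2 measured 4.53, 7.81 and 6.80 FPKM in Con, against 32.07, 5.89 and 14.41 in Abx. For both, Abx1 and Abx3 were above all Con libraries and Abx2 was not.

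Trav8d-2 measured 2.60, 4.27 and 3.60 FPKM in Con, against 20.54, 4.90 and 8.24 in Abx. Trav7-5 measured 2.22, 3.31 and 3.09 FPKM in Con, against 14.72, 3.32 and 6.37 in Abx. The groups of both segments did not overlap, though Abx2 exceeded the highest Con library by less than the Con libraries differed among themselves. Trav12-3, lower than its 2 family members, measured 1.0, 1.80 and 1.35 FPKM in Con, against 6.47, 1.42 and 4.34 in Abx.

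Only 13 V segments, no J segment and Trac passed the filter of the test, 1 FPKM or more in at least 3 libraries. Of the 13, 2 passed it with no Con library at 1 FPKM, so the 13 are not the V segments as a whole. None of these 14 genes was called by limma at a fold over 2 and an adjusted p under 0.05, where 0.0574% of the 8718 genes tested were called. None had an unadjusted p under 0.05 either, where 11.0% of the genes tested did, 4.74% higher and 6.25% lower in Abx. The log2 fold changes of the 13 V segments ran from 0.19 to 1.93 with a median of 0.88, beside a median of -0.06 over all genes tested. This median describes only the segments that passed, and it was 0.18 with no filter. The lowest adjusted p was 0.564, for Trav16n.

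Over all V segments, tested or not, 20 of the 98 above 0 in a library (20.4%) had every Abx library above every Con library, and none had every Abx library below. Among all genes above 0 in a library the shares were 5.88% and 5.10%. Most of the 20 were low: Trav8-1 measured 0.09, 0.16 and 0.04 FPKM in Con, against 0.63, 0.37 and 0.34 in Abx. Trav13n-4 measured 0.14, 0.11 and 0.07 FPKM in Con, against 0.50, 0.18 and 0.38 in Abx. These 2 were picked after their values were seen. Copies share reads, so the 20 are not independent. With d and n copies merged, 11 of 47 families above 0 (23.4%) had Abx above Con and none had it below.

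Copies could not be told apart by sequence in many cases. Of the 130 V segments, 48 share at least 90% of their 50-base windows with another V segment, and 10 share none. Trav12d-3 and Trav12n-3 were at nearly the same level in every library, for example 4.61 and 4.62 FPKM in Abx1, and so were Trav14d-2 and Trav14n-2, at 7.41 and 7.70 FPKM in Abx2. Between the copies of both pairs the values within a library differed by at most 0.29 FPKM. Trav11d and Trav11 are identical over all 342 bases of Trav11d, yet Trav11d was at 40.24 FPKM in Abx1 and Trav11 was listed at 0 there. How reads were assigned among identical copies is not given in the sources used here, so the level of one copy is uncertain.

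The V segments were then compared across single libraries. Of the 29 that were above 0 in all 3 Con libraries, 28 were highest in Abx1 and 1, Trav16n, in Abx3. Copies were counted separately, such as Trav6d-7 and Trav6n-7, both at 2.91 FPKM in Abx1, so the 29 are not independent. Relative to the mean of Con, their median level over the libraries of Con was 0.723, 1.19 and 0.951, and over those of Abx 4.69, 1.16 and 2.17. Over the 10517 genes above 0 in all 3 Con libraries the median ratio was 0.857, 0.909 and 0.887 in the Abx libraries, and 23.1% of them were highest in Abx1.

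Most genes on a list for adipocytes were also highest in Abx1. All 11 genes on this list, which was drawn up after the data were seen, had their highest level there except Cfd, which was highest in Abx3. Relative to the Con mean, their median was 0.646, 1.23 and 1.12 in turn for Con 1 to 3, and 4.02, 0.733 and 1.3 for Abx 1 to 3. Adipoq, the adiponectin gene, measured 0.74, 1.10 and 1.22 FPKM in Con, against 3.98, 0.77 and 1.12 in Abx. Lep, the leptin gene, measured 0.72, 1.49 and 1.31 FPKM in Con, against 4.72, 0.86 and 1.48 in Abx. The summed level of the list was 5.82 to 16.3 FPKM in Con and 7.44 to 47.1 FPKM in Abx. The collagen genes Col1a1 and Col3a1, markers of fibroblasts, were also highest in Abx1, at 0.55 and 1.04 FPKM. Markers of other tissue cells were not uniformly so. Of the epithelial markers, Epcam was listed at 0 in Abx1, Scgb1a1 was highest in Con1 and Sftpc in Abx3. The endothelial gene Cdh5 was highest in Abx1, at 0.12 FPKM, and Pecam1 in Abx3. The erythroid gene Hbb-bs was lowest in Abx1, at 1312 FPKM. The part of these genes, or of what they mark, in the V results was not tested.

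**Figure D2:**
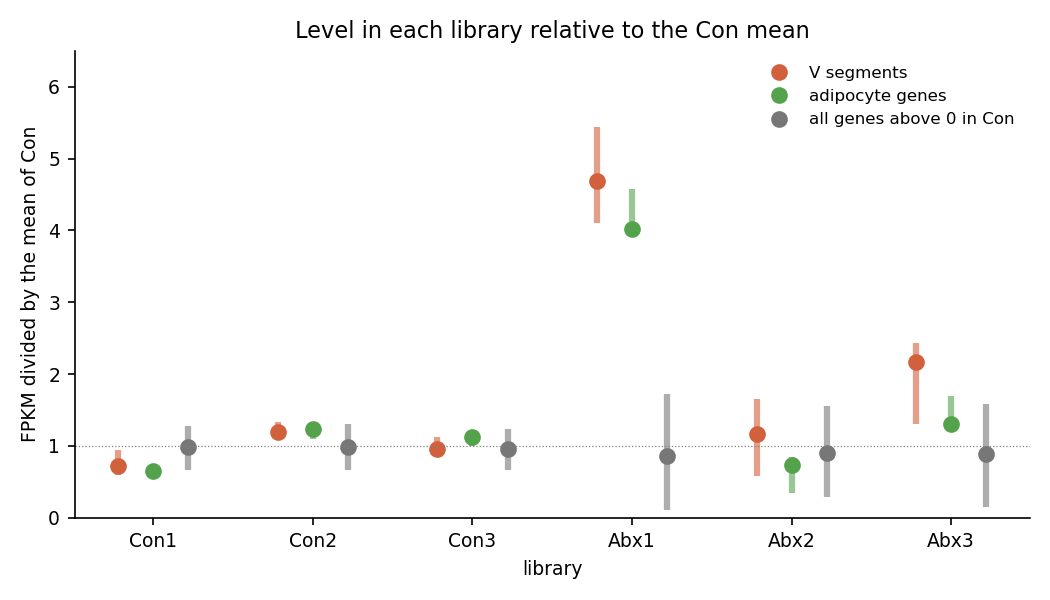
Level in each library divided by the mean of the 3 Con libraries, for the 29 V segments above 0 in all Con libraries (orange), 11 adipocyte genes (green) and all genes above 0 in all Con libraries (grey). Points are medians over genes and bars run from the lower to the upper quartile, with copies of V segments counted separately. V segments and adipocyte genes both peak in Abx1, with medians of 4.69 and 4.02. The adipocyte list was drawn up after the data were seen.

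Some V segments stood out in a single library. By a rule set after the values were seen, at least 5 FPKM in one library and at least 5 times the next highest library, there were 11 such V segments and 2 J segments. They made up 68.4% of the 19 members at 5 FPKM or more in a library, where 11.5% of the 9465 genes at that level met the rule. The copies Trav14d-2 and Trav14n-2 are counted separately, so these segments are not independent. Con1 had none, Con2 had 2, Con3 had 2, Abx1 had 4, Abx2 had 3 and Abx3 had 2.

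In Con2 the 2 were Trav7d-3 at 6.86 FPKM and Trav13-5 at 5.93 FPKM. In Con3 they were Trav7d-4 at 7.68 FPKM and Trav6d-3 at 5.15 FPKM. In Abx2 they were the copies Trav14d-2 and Trav14n-2, with Trav14-3 of the same family at 5.29 FPKM. All of these levels were under 8 FPKM, in Con and Abx libraries alike.

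Higher levels of this kind were found in Abx1 and Abx3. Trav16n measured 0.45, 0.96 and 1.06 FPKM in Con, against 5.12, 0.85 and 27.90 in Abx. It was 33.9 times the Con mean in Abx3, and its log2 fold change was 1.93 (SE 1.03), the largest of the V segments tested. Without Abx3 it was 0.90, under the 1.35 of Trav8d-2 in the same fit, and without Abx2 it was 2.88. Trav17, which shares no 50-base window with another V segment, was listed at 0 in all Con libraries and was at 0.22, 0.09 and 17.11 FPKM in Abx. Trac was lowest in that same library, Abx3.

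In Abx1 the 4 were Trav11d, Traj18, Traj19 and Trav15-1-dv6-1, the last at 6.23 FPKM and listed at 0 elsewhere. Trav11d measured 0.09, 0.00 and 0.00 FPKM in Con, against 40.24, 0.06 and 0.00 in Abx. Trav11d and Traj18 are the segments of the invariant natural killer T cell chain. Other markers of these cells were at or near 0: Zbtb16, which encodes the transcription factor PLZF of these cells, was at 0.20 FPKM in Abx1, and Klrb1c, which encodes NK1.1, was listed at 0 in all 6 libraries. NK1.1 was in the lineage cocktail of the sort. For the MAIT chain, Trav1 measured 0.26, 0.37 and 0.08 FPKM in Con, against 1.41, 0.61 and 0.31 in Abx, and Traj33 was listed at 0 in all.

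**Figure D3:**
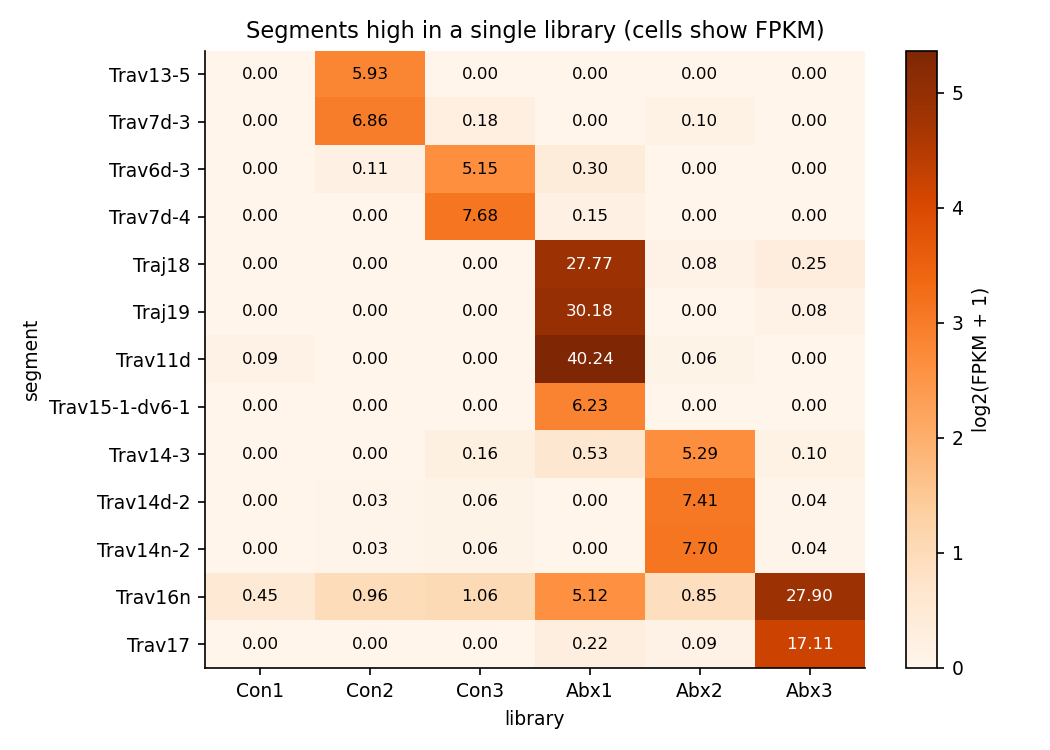
The 13 segments with at least 5 FPKM in one library and at least 5 times the next highest library. Rows are segments, columns are libraries, numbers are FPKM and the shade is log2(FPKM + 1). Each row is highest in a single library, and Trav16n is the one segment also above 1 FPKM elsewhere, at 1.06 FPKM in Con3 and 5.12 FPKM in Abx1.

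J segments were close to undetected. Of the 60, 51 were listed at 0 in all 6 libraries, including all 9 pseudogenes, and 9 were above 0 in at least 1 library. The summed level was 0.00, 0.31 and 0.00 FPKM in Con, against 59.2, 1.51 and 1.16 in Abx. Every Abx library was above every Con library, and nearly all of the sum in Abx1 came from Traj18 and Traj19. J segments are short, 29 to 72 bases in the annotation, and read counts are unknown, so a listed 0 means only that the segment was not detected. Segments of the beta locus, which are also short, were detected: 7 to 13 Trbj segments per library reached 1 FPKM, with summed levels of 198.4 to 266.5 FPKM in Con and 352.8 to 535.3 FPKM in Abx.

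Traj18 was listed at 0 in all Con libraries and was at 27.77, 0.08 and 0.25 FPKM in Abx. Traj19, whose end lies 330 bases before the start of Traj18, was listed at 0 in all Con libraries and was at 30.18, 0.00 and 0.08 FPKM in Abx. Both lie within the 3′ part of the J cluster, Traj19 at chr14:54200386-54200446 and Traj18 at chr14:54200777-54200842. The remaining value of 1 FPKM or more was Traj26, at chr14:54194490-54194549, which was listed at 0 in Con and was at 0.50, 1.14 and 0.48 FPKM in Abx. Its groups did not overlap, and an exact permutation test cannot give a p under 0.1 with 3 libraries against 3. The next highest were Traj49 at up to 0.46 FPKM, Traj58 and Traj41 at up to 0.29 FPKM, Traj44 at up to 0.25 FPKM and Traj37 at up to 0.18 FPKM.

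Trac is the constant gene that every alpha chain uses. It measured 11.67, 3.01 and 10.82 FPKM in Con, against 21.18, 14.05 and 0.22 in Abx. The groups overlapped, with the highest and the lowest library both in Abx. Con averaged 8.50 ± 4.77 FPKM (SD, n = 3), Abx averaged 11.8 ± 10.7 FPKM (SD, n = 3), and the log2 fold change was -0.19 (SE 1.19, limma adjusted p = 0.975). Without Abx3 the log2 fold change turned to 1.11 (SE 0.724, adjusted p = 0.545). In Abx3, summed V FPKM was the second highest of the 6 libraries while Trac was the lowest.

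Position along the locus was described by cutting the V and the J segments, each ordered by start coordinate, into 2 parts with equal numbers of segments. Of the 65 J-proximal V segments, 23 reached 1 FPKM in a library, and of the 65 distal V segments, 14 did. The J-proximal segments held 77.6%, 69.0% and 57.8% of the summed V FPKM in Con and 62.3%, 68.1% and 82.2% in Abx. The mean was 68.1 ± 9.91% (SD, n = 3) in Con and 70.9 ± 10.2% (SD, n = 3) in Abx, a difference of 2.73 percentage points that is smaller than the spread between libraries. It turned to -5.40 points when the V segments were cut into 3 parts in place of 2, and to -2.42 and -2.95 points without Con3 and without Abx3. Abx3, the library in which the J-proximal segments Trav16n and Trav17 were high, had the highest share. Copies that cannot be told apart lie on both sides of the cut. Trav11d, at 40.24 FPKM in Abx1, is distal, while Trav11, identical over the length of Trav11d, is J-proximal. The shares thus depend on how reads were assigned among copies, which is unknown.

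The group difference was also described by position. Of the V segments tested, 4 were distal, whose log2 fold changes had a median of 0.84, and 9 were J-proximal, with a median of 0.96. These medians describe only the segments that passed the filter. Trav6n-6, distal, and Trav8n-2, J-proximal, passed it with no Con library at 1 FPKM. The near-identical copies Trav12d-3 and Trav12n-3 fall in different parts. The difference between the 2 parts was not tested. V segments with every Abx library above every Con library numbered 8 of the 48 distal ones above 0 and 12 of the 50 J-proximal ones, beside 5.88% of all genes above 0. Copies with the same values, such as Trav15d-2-dv6d-2 and Trav15n-2, are counted once in each part, so these counts are not independent. For the J segments, the 30 V-proximal ones summed to at most 0.75 FPKM in any library, and all 3 J segments that reached 1 FPKM were among the 30 C-proximal ones. In Con1 and Con3 no J segment was above 0, so a share by position had no value there.

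**Figure D4:**
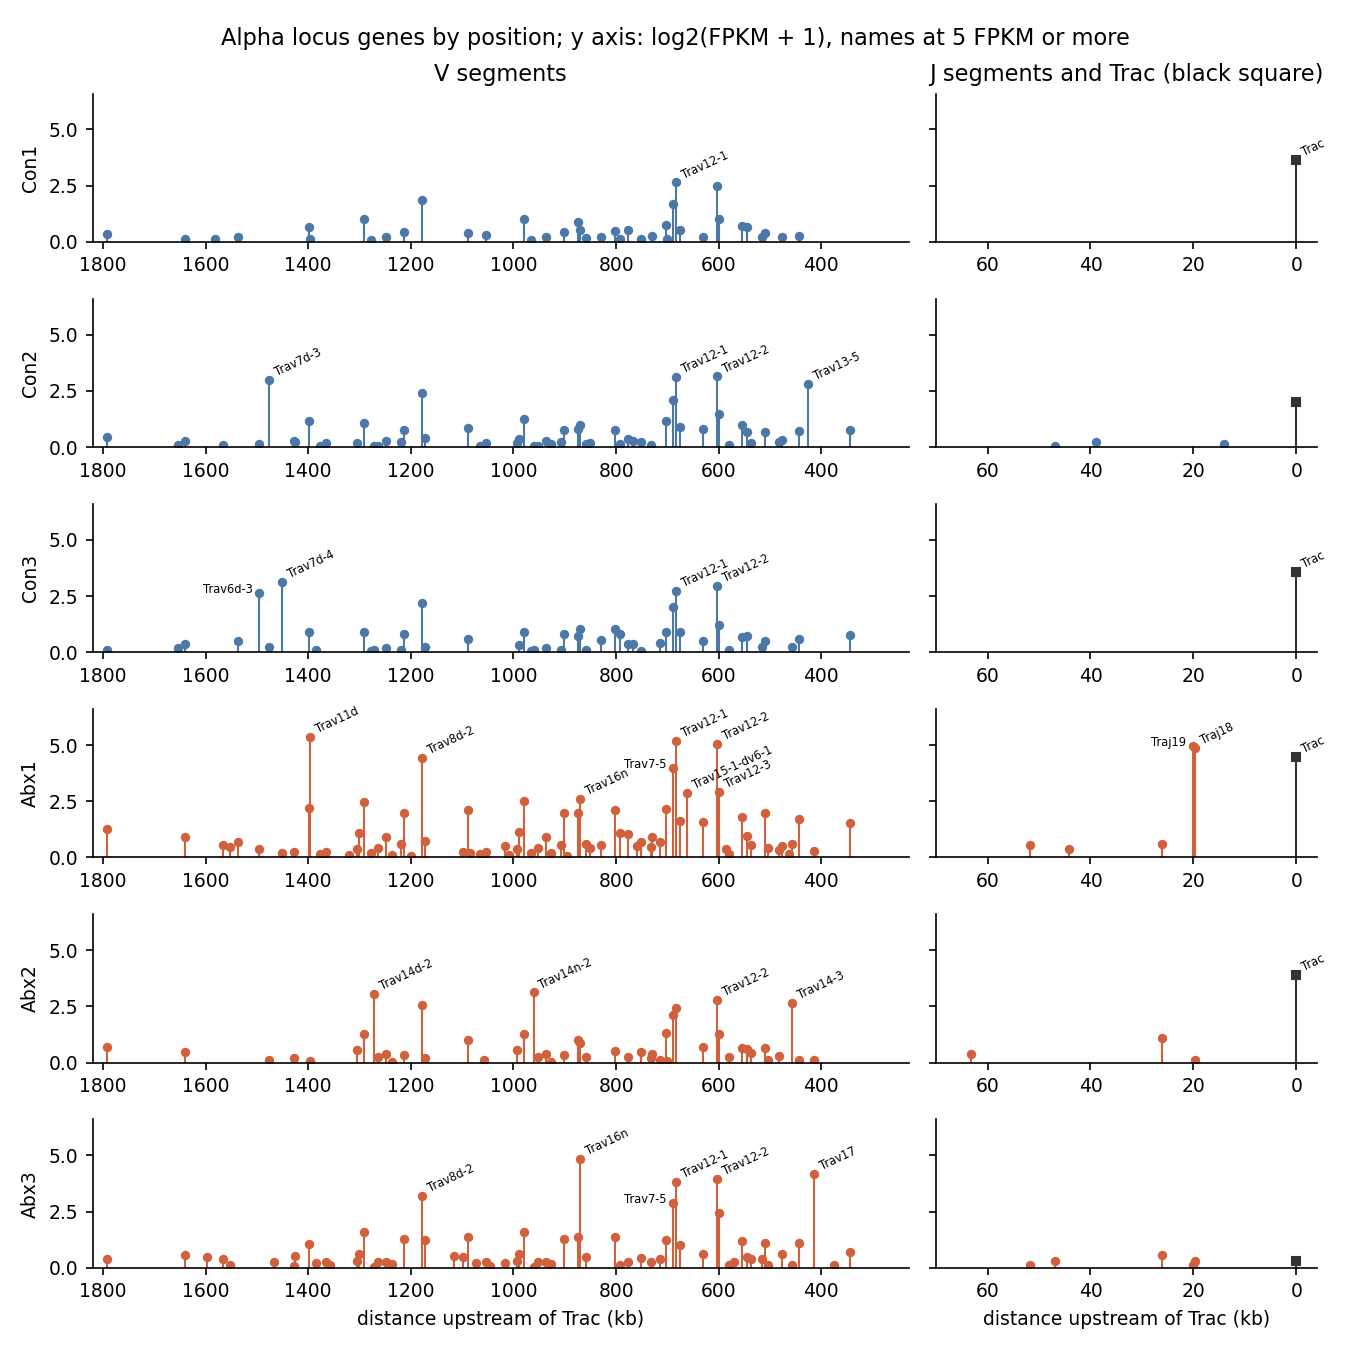
Level of every V segment (left) and of every J segment and Trac (right) in the 6 libraries, on a log2(FPKM + 1) scale, against the distance upstream of the start of Trac in kilobases. Each stem is a gene, blue in Con and orange in Abx, the black square is Trac, and names are given at 5 FPKM or more. Trav12-1 and Trav12-2 recur across libraries, while Trav11d, Traj18 and Traj19 are high in Abx1, and Trav16n and Trav17 in Abx3.

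The partners of the alpha chain were on a list of 7 genes, all tested. All 7 log2 fold changes were positive and none was called (limma, adjusted p). Of the 7, 4 had an unadjusted p under 0.05, beside 4.74% of all genes tested that did and were higher in Abx, and 5 had every Abx library above every Con library, beside 8.49%. Trbc1 and Trbc2, the constant genes of the beta chain, were far higher than Trac on the FPKM scale, at 207.9 to 387.0 and 873.7 to 957.8 FPKM in Con, against 632.8 to 778.3 and 1639 to 1803 in Abx. Cd3d, which encodes a signalling chain of the receptor complex, measured 8.32, 6.10 and 4.46 FPKM in Con, against 63.81, 37.15 and 107.99 in Abx (log2 fold change 3.18, SE 0.514, adjusted p = 0.0911). Ptcra, which encodes the pre-T alpha chain that stands in for the alpha chain in immature thymocytes, measured 6.13, 0.00 and 0.00 FPKM in Con, against 63.09, 44.55 and 15.21 in Abx (log2 fold change 4.23, SE 0.999, adjusted p = 0.127). In both genes every Abx library was above every Con library.

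**Figure D5:**
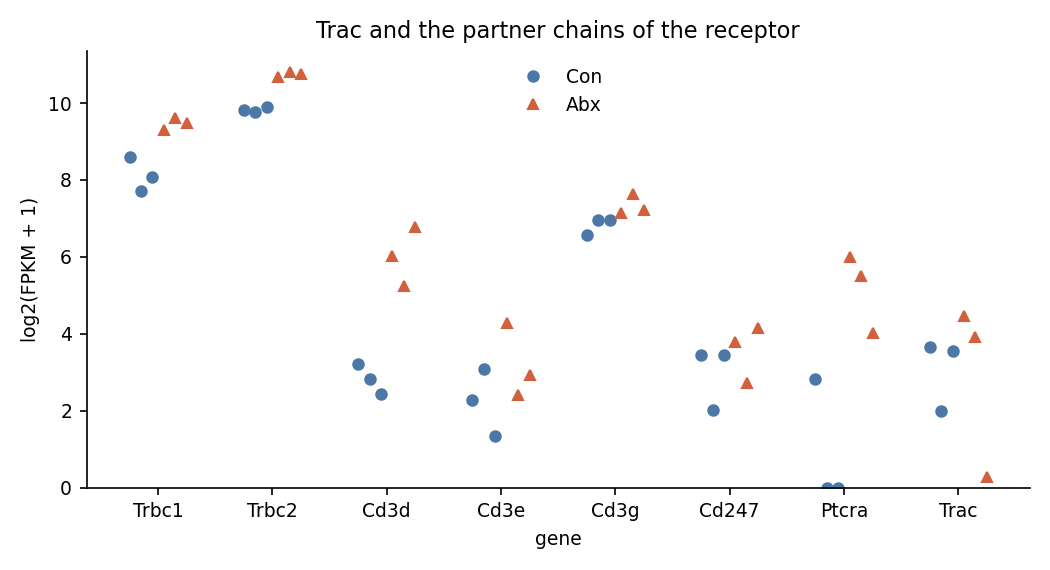
Level of the 7 receptor partner genes and of Trac on a log2(FPKM + 1) scale, with a point for each library (blue circles, Con; orange triangles, Abx; replicates 1 to 3 from left to right). Abx lies above Con without overlap for Trbc1, Trbc2, Cd3d, Cd3g and Ptcra, and the groups overlap for Cd3e, Cd247 and Trac.

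Of the 3 coreceptor genes, Cd4 and Cd8a were at or near 0 in most libraries. Cd4 was above 0 in Abx2 only, at 7.46 FPKM, and Cd8a was at 3.25 FPKM in Con1, 0.04 FPKM in Abx1 and 0 elsewhere. Cd8b1 measured 4.62, 10.17 and 0.00 FPKM in Con, against 27.06, 52.18 and 36.42 in Abx (log2 fold change 3.27, SE 0.916, limma adjusted p = 0.184). Its groups did not overlap, where 8.49% of all genes tested had Abx wholly higher. Of the list of 15 alpha-beta T cell markers, 10 were tested, 9 with a positive log2 fold change, 4 higher with an unadjusted p under 0.05, beside 4.74% of all genes tested, and none called. Trbc1, Trbc2 and Cd3d are 3 of these 4 and were already counted among the partners, and Cd8b1 is the other. Its summed level was 1266 to 1441 FPKM in Con and 2608 to 2991 FPKM in Abx, most of it from Trbc1 and Trbc2. Markers of other lymphocytes also differed without being called. The 9 B cell markers summed to 386.1 to 512.8 FPKM in Con and 857.1 to 904.2 FPKM in Abx, most of it from Ighm and Igkc. Of the 8 tested, 3 lay wholly higher in Abx, Ighm and Igkc among them. Another 2, Cd79b and Cd22, lay wholly lower, beside 8.49% and 8.73% of all genes tested. Gzma, a granzyme of cytotoxic lymphocytes, measured 13.78, 10.77 and 0.00 FPKM in Con, against 223.6, 218.4 and 215.4 in Abx, while the other 4 NK cell markers were at 0 or near it except Ncr1 in Con1, at 7.90 FPKM. The part of these markers in the V, J and Trac levels was not tested.

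Among the 10 recombination genes, 6 were tested, 3 with a positive and 3 with a negative log2 fold change, and none was called. Rag2, which encodes a subunit of the recombinase, was listed at 0 in all 6 libraries. Rag1, which encodes the other subunit, measured 0.86, 0.00 and 0.00 FPKM in Con, against 12.29, 0.99 and 7.80 in Abx. Dntt, which encodes the terminal transferase that adds bases at the joints, measured 0.03, 0.02 and 11.64 FPKM in Con, against 75.93, 139.81 and 156.05 in Abx (log2 fold change 5.66, SE 0.997, adjusted p = 0.0911). Dclre1c, which encodes the nuclease Artemis that opens the hairpin ends, went the other way, at 1.74, 2.71 and 1.64 FPKM in Con, against 0.06, 0.24 and 0.25 in Abx (log2 fold change -1.34, SE 0.404, adjusted p = 0.217). Prkdc, which encodes the kinase that activates Artemis, measured 2.62, 0.44 and 1.92 FPKM in Con, against 0.04, 0.01 and 0.02 in Abx. Over the list, Abx lay without overlap above Con for 2 genes, Rag1 and Dntt, and below it for 2, Dclre1c and Prkdc, beside 5.88% and 5.10% of all genes above 0 in a library. Rag1 and Prkdc were too low to pass the filter.

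Of the 7 proximal signalling genes, all tested, 3 had a positive and 4 a negative log2 fold change and none was called. Lck, the kinase that starts receptor signalling, measured 57.85, 60.52 and 58.02 FPKM in Con, against 186.13, 128.30 and 361.36 in Abx. Its groups did not overlap. Over the list, Abx lay above Con without overlap for 3 genes and below it for 2, beside 8.49% and 8.73% of all genes tested. Of 15 regulators of the locus, 14 were tested, 7 in each direction, and none was called. Abx lay without overlap above Con for 3 of them and below it for 1, beside the same shares. Tcf7, 1 of the 3, was listed at 0 in all Con libraries and was at 29.43, 19.44 and 28.63 FPKM in Abx (log2 fold change 4.72, SE 0.664, limma adjusted p = 0.0911).

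The genes of the delta chain lie inside the alpha locus: Trdv2-2 lies within the V cluster, and Trdv4 and Trdc lie between the V and the J segments. Trdv4 was higher than every alpha segment on the FPKM scale, at 156.2, 139.3 and 168.8 FPKM in Con, against 209.4, 242.0 and 214.7 in Abx (log2 fold change 0.52, SE 0.200, adjusted p = 0.378). Trdc measured 1.91, 0.01 and 1.19 FPKM in Con, against 8.08, 6.81 and 4.91 in Abx (log2 fold change 2.01, SE 0.706, adjusted p = 0.310). Trdv2-2 measured 0.62, 0.00 and 1.29 FPKM in Con, against 50.37, 0.00 and 0.00 in Abx. It was thus high in Abx1, the library with Trav11d, Traj18 and Traj19. Dad1, which lies 3′ of Trac, measured 157.2, 162.6 and 191.8 FPKM in Con, against 93.9, 183.4 and 169.0 in Abx, and its groups overlapped. Of a list of 9 genes next to or inside the locus, 8 were tested and none was called. The log2 fold change was positive for 5 and negative for 3. Abx lay above Con without overlap for 2, Trdv4 and Trdc, and below it for none, beside 8.49% and 8.73% of all genes tested. Of the 6 gamma-delta T cell markers, Trdv4 and Trdc among them, 4 were tested, 3 higher and 1, Tcrg-C4, lower, and none was called.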

How the data were processed

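SMART-seq v4 libraries of 1000 sorted lung ILC2s were grouped by the labels into 3 Con and 3 Abx. Per their methods, the authors trimmed reads with Cutadapt, mapped with HISAT2 and made the deposited FPKM values with StringTie. The methods name a human annotation, but the genes carry mouse identifiers, of which 55134 of 55394 are in GENCODE M21. The submitters' processing notes also name Bowtie 0.12.2, mm8 and mm9. FPKM assigned to near-identical copies is uncertain.

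Genes at 1 FPKM or more in at least 3 libraries (8718) were tested on log2(FPKM + 1) with limma 3.58.1 in R 4.3.3 (lmFit, eBayes with trend, two-sided, Benjamini-Hochberg over all genes tested), so fold changes of low genes are understated. The same fit was tested on simulated data. Sums, counts of segments and shares were described without a test. Tables were made with Python 3.11.15 and pandas 2.3.3.

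Named genes were Trac, the 8 V and 8 J segments with the highest mean, the 6 V segments with the largest fold change, members called or with an unadjusted p under 0.05, the segments of the invariant chains, and genes of the pathway and marker lists. Not all are given. The members and lists were chosen with earlier results of these data known. Same-numbered libraries did not deviate together (correlations -0.02, -0.03 and 0.01), so the numbers were not used as pairs. Alternatives were pseudocounts of 0.1 and 0.01, quantile normalization, median centring, no filter, a mean of at least 5 FPKM, the replicate block, each library left out, and other rules for detection, merging and position.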

Additional observations from a re-analysis of the deposited data

How the results depend on the processing

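No alpha locus gene was called in any of the 13 alternative fits, among them the replicate block. The number with an unadjusted p under 0.05 was 0 in most fits. It was 5 of 14 with quantile normalization (lowest adjusted p 0.39), 11 of 108 with no filter (lowest adjusted p 0.377), and 0 to 3 of 14 with each library left out, the 3 without Abx2, all higher in Abx. Of all genes in these 3 fits, 5.4%, 2.99% and 5.37% were higher at that p. The median log2 fold change of the V segments tested was 1.33 with quantile normalization and 0.18 with no filter, where more segments at or near 0 were tested. With each library left out it was 0.45 to 1.11, lowest without Abx1. The log2 fold change of Trac turned to 0.10 with quantile normalization, and ranged from -0.98 to 1.11 with each library left out (0.11 without Con1 and 0.06 without Con3). Trav6d-6 turned to -0.32 and -1.33 with pseudocounts of 0.1 and 0.01, and ranged from -0.37 (without Abx1) to 0.74 with each library left out. The difference in V segments detected was 3.00 at 5 FPKM or more and 6.00 with copies merged, against 11.7. With each library left out it was 8.0 to 15.5. For J segments it was 3.33 above 0, against 1.0. The summed J level was 20.5 FPKM higher in Abx, and 1.23 FPKM higher without Abx1. A share of J segments by position and a median J fold change could not be given. The numbers do not pair the libraries, and the replicate block changed no call. The unknown read number limits every low value.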
